A study of Mus musculus with 18 samples.

Results

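Day 1 enteroids of the mouse duodenum were compared between genotypes across the whole transcriptome. Enteroids are small closed epithelial structures that grow from isolated crypts in a gel of basement membrane matrix, and day 1 is 24 h after plating. The comparison took in every library of that day, 3 labelled WT (*Mtgr1*+/+) and 3 labelled *Mtgr1*-/- (null), which are 6 of the 18 libraries of the series. Each library came from 1 mouse, from littermate WT and germline *Mtgr1*-/- animals of both sexes aged 8 to 12 weeks. All 6 shared the same culture, in Matrigel under a medium with EGF, Noggin and R-spondin. Of the 17423 genes listed, 12587 passed the minimum, a mean over the 6 libraries of 10 normalized counts or more, and were tested, and the other genes were left out of every count below.

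MTGR1, encoded by *Cbfa2t2*, is a transcriptional corepressor of the myeloid translocation gene family. These scaffold proteins do not bind DNA themselves. They are brought to genes by DNA-binding factors, among them the E proteins, and recruit histone deacetylases. In the small intestine, stem cells at the crypt base divide under Wnt and Notch signals, and their daughters become either absorptive enterocytes or secretory cells, which are the goblet, Paneth, enteroendocrine and tuft cells. WT enteroids keep stem cells, dividing progenitors and differentiated cells in 1 structure.

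The recovered depth was 22035316 to 28621990 reads per library, with a median of 27723766.5, and a gene at the minimum therefore rested on about 10 reads per library. Markers of the epithelium took 1.14 to 1.55% of the normalized counts, and those of lymphocytes, B cells, macrophages, fibroblasts, muscle, endothelium, neurons, erythroid cells and Brunner's glands at most 0.0021% each. *Xist* was at 10216 in WT library 3 and 9047 in labelled null library 1 and at most 12.3 in the other 4, so each genotype held 1 library of the female and 2 of the male pattern. *Cbfa2t2* (ENSMUSG00000038533.15, chromosome 2 of GRCm38, 154436481 to 154539356) was 788, 710.2 and 757 in WT enteroids and 1160.3, 1008 and 789 in those labelled null (log2 fold change 0.37, SE 0.14, adjusted p = 0.0557, limma). The targeted gene was therefore not lower in the libraries labelled null, and which exons the allele removes was not given in the sources used here, so the level of this gene checks nothing about the labels. Below, "labelled null" stands for the 3 libraries labelled *Mtgr1*-/-, and every direction rests on that label. In a principal component analysis of all tested genes, the first component held 77.1% of the variance, with the WT libraries between -68.9 and -62.7 and those labelled null at 76.5, 43.7 and 75.5.

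Most of the transcriptome differed between the genotypes. At an adjusted p below 0.05 (limma on log2(normalized count + 1)), 7413 genes were called, 58.9% of those tested, with 3776 higher (30.0%) and 3637 lower (28.9%) in the libraries labelled null. The 3 libraries of 1 genotype lay outside the range of the other for 8571 genes (68.1%). Most differences were small, as 64.3% of the calls were within 2-fold and the median size over all tested genes was 0.507 on the log2 scale. At least 2-fold differences were called for 2647 genes (21.0%), of which 1311 were higher and 1336 lower. Falls also outnumbered rises at each larger size counted, with 334 rises and 460 falls of at least 4-fold, 120 and 265 of at least 8-fold, 47 and 167 of at least 16-fold, and 24 and 77 of at least 32-fold.

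The direction moved with the level of a gene. Among genes with a mean of 100 to 300, 306 rose and 608 fell, whereas among the 1914 genes with a mean over 3000, 1038 rose and 371 fell. The highest genes thus took a larger part of the libraries labelled null, where the 100 highest held 24.1 to 27.4% of all counts against 21.2 to 22.5% in WT. This makes the split of calls depend on the scaling. With each gene's reads taken as a share of the library's reads (CPM scaling) in place of the authors' factors, the median log2 fold change of all genes moved from -0.0080 to -0.33, and 2206 genes were higher and 5588 lower, so that 28.3% of the calls were rises against 50.9%. Directions below are those under the authors' factors, and several gene groups described below had a median of the other sign in CPM or after quantile normalization. Counts of calls per group stand beside 58.9% of all tested genes called, 30.0% higher and 28.9% lower. Labelled null library 2 lay nearest to WT, with the smallest difference of the 3 for 81.2% of the 2-fold rises and 69.5% of the 2-fold falls. Without it, 7856 genes were called, 3168 of them with at least 2-fold.

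**Figure D1:**
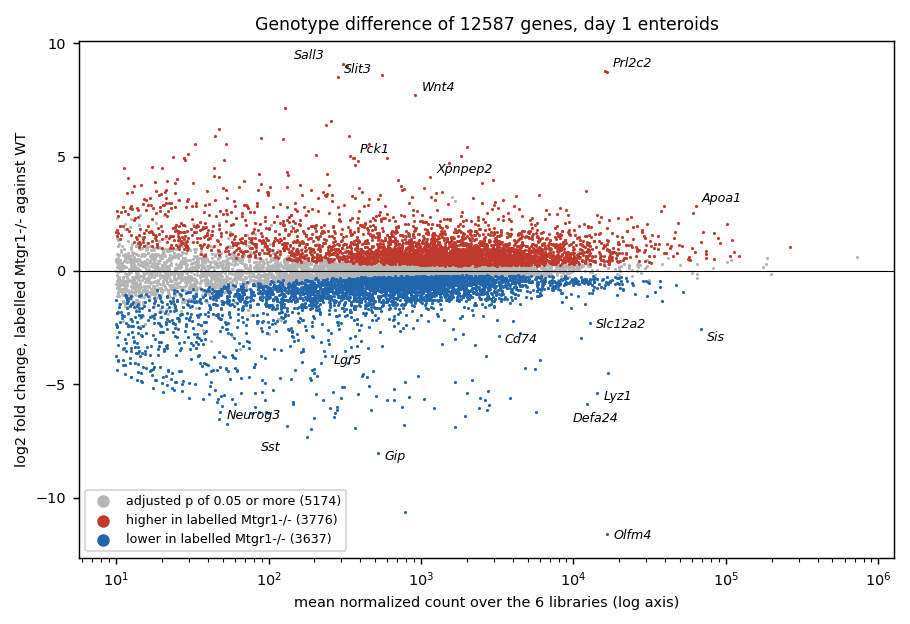
Each point is 1 of the 12587 tested genes, with its mean normalized count over the 6 libraries on a log axis and its log2 fold change, libraries labelled Mtgr1-/- against WT, on the vertical axis. The 3776 red and 3637 blue points passed an adjusted p of 0.05 (limma), and the falls reach further from 0 (Olfm4 at -11.59) than the rises (Prl2a1 at 9.07).

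The rises were led by genes that were almost silent in WT enteroids. *Prl2a1*, a member of the prolactin family that is known from the placenta, was 0 in every WT library and 259, 623 and 963 in those labelled null, at least 220-fold higher against a floor of 3 reads in each WT library (adjusted p = 3.01e-05, limma). The proliferin genes *Prl2c2*, *Prl2c3* and *Prl2c5* of the same family are near-identical copies, so the split of reads between them is uncertain and their sum is the firmer value. Together they held 236, 56.2 and 244 normalized counts in WT and 67878, 43899 and 87255 in the libraries labelled null, where they made up 0.162 to 0.280% of all counts. Each of the 3 was called by itself, with log2 fold changes of 8.75, 8.78 and 8.60.

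Regulators of other tissues stood beside them. *Sall3* (ENSMUSG00000024565.9, chromosome 18 of GRCm38, 80966376 to 80986771), a zinc finger transcription factor of the spalt family, was 0, 1.04 and 0 in WT enteroids and 714, 676 and 569 in those labelled null (log2 fold change 9.0, adjusted p = 1.17e-05, limma). *Tfap2a*, an AP-2 factor of neural crest and skin, was 6.4, 4.17 and 3.35 in WT enteroids and 526, 351 and 533 in those labelled null (log2 fold change 6.39, adjusted p = 1.8e-05, limma). *Wnt4* (ENSMUSG00000036856.4, chromosome 4 of GRCm38, 137277489 to 137299726), a Wnt ligand, was 6.4, 7.29 and 8.38 in WT enteroids and 2037, 1119.9 and 2336 in those labelled null (log2 fold change 7.71, SE 0.28, adjusted p = 7.99e-06, limma). *Slit3*, a secreted guidance molecule, was 0.915, 0 and 0.838 in WT enteroids and 667, 419 and 624 in those labelled null (log2 fold change 8.52, adjusted p = 1.67e-05, limma). No library labelled null came near a WT library in any of these 4 genes, and the highest value of *Wnt4* was in library 3.

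The other leading rises were the kallikrein protease *Klk6* (7.14), *Megf6* (6.57), the kinase *Rps6ka2* (5.91) and the Ras activator *Rasgrp3* (5.82). In all, 12 genes had at most 3 reads in each WT library and a mean of at least 50 in the libraries labelled null, and the 8 highest were *Sall3*, *Prl2a1*, *Slit3*, *Klk6*, *Gm2274*, *Tmprss6*, *Nav3* and *Lypd3*. *Tmprss6* is a liver protease that restrains hepcidin, and it was 0, 0 and 0.838 in WT enteroids and 74.6, 138 and 71.7 in those labelled null. *Lypd3* was 0, 1.04 and 0 in WT enteroids and 103, 30.3 and 65.1 in those labelled null. The opposite pattern, at most 3 reads in each library labelled null and a mean of at least 50 in WT, was found for 24 genes. *Gm2274* was also at 0 in labelled null library 1. Values in brackets after a gene's name are log2 fold changes of called genes, here and below. Of the called genes named below, the ranges of the genotypes overlapped for *Klf4*, *Fzd8*, *Ccl20*, *Dmbt1*, *Tap1* and *Tmprss15*.

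Among the leading falls were secretory genes and a stem cell gene. *Olfm4* (ENSMUSG00000022026.7, chromosome 14 of GRCm38, 79984081 to 80023139), a secreted glycoprotein of crypt base stem cells, was 43254, 38689 and 17576 in WT enteroids and 7, 10.4 and 9.93 in those labelled null (log2 fold change -11.59, SE 0.33, adjusted p = 4.72e-06, limma). *Gip*, the incretin of K cells, was 1097, 976 and 1044 in WT enteroids and 0, 13.3 and 3.31 in those labelled null (log2 fold change -8.04, adjusted p = 0.000276, limma). *Sst*, the hormone somatostatin of D cells, was 345, 326 and 388 in WT enteroids and 0, 9.48 and 0 in those labelled null (log2 fold change -7.33, adjusted p = 0.000429, limma). These libraries are bulk RNA, so fewer cells of a type and less RNA per cell cannot be told apart in them. *Neurog3*, the transcription factor that starts the enteroendocrine lineage, was 245, 313 and 231 in WT enteroids and 0, 2.84 and 2.21 in those labelled null (log2 fold change -6.83, adjusted p = 0.000106, limma). The matrix protein *Prelp* (-6.96), the aldo-keto reductase *Akr1c14* (-6.92), the receptor *Gfra3* (-6.74), the hormone gene *Ghrl* (-6.47) and the organic anion transporter *Slco3a1* (-6.46) fell by similar amounts. *Rpl34-ps1*, a processed pseudogene of a ribosomal protein gene, was 1491, 1603 and 1656 in WT enteroids and 0 in every library labelled null, which is at least 492-fold lower against a floor of 3 reads per library, and reads of its parent gene could have been shared with it.

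**Figure D2:**
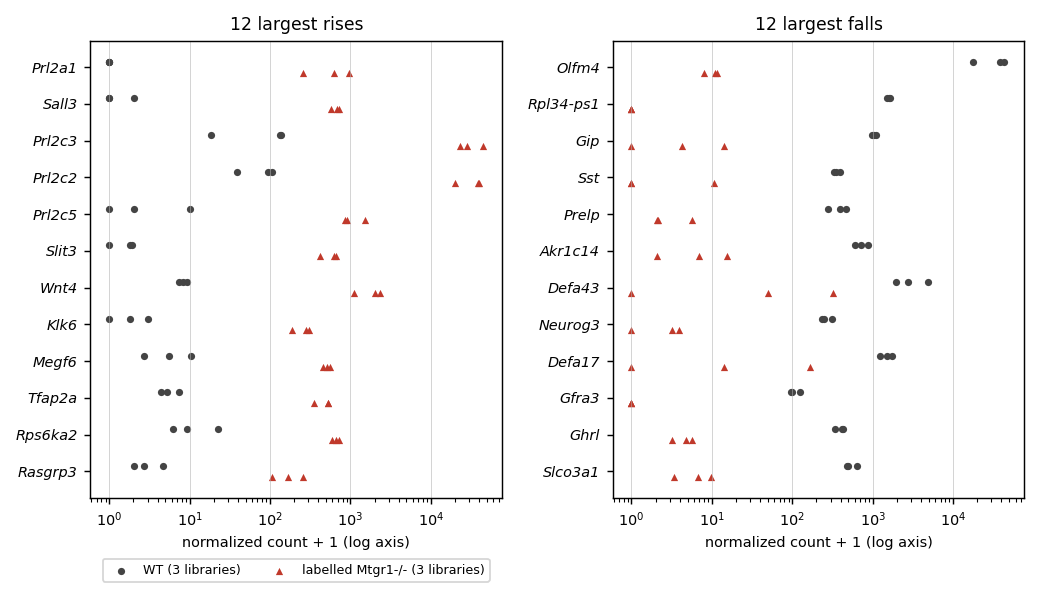
Normalized counts plus 1, on a log axis, of the 12 genes with the largest called rises and the 12 with the largest called falls. Each symbol is 1 library, with 3 WT libraries as circles and 3 labelled Mtgr1-/- as triangles, and in none of the 24 genes do the 2 sets overlap.

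In absolute counts the gains lay in enterocyte genes. Among the genes that gained most were *Apob*, *Apoa1*, *Gsta1*, *Apoa4*, *Lypd8*, *Sprr2a2*, *Mttp*, *Fabp1* and *Fth1*. They encode the apolipoproteins and transfer protein of chylomicrons, a fatty acid binding protein, a glutathione transferase, an antibacterial surface protein, a cornified envelope protein and ferritin heavy chain. The 10 that lost most were *Sis*, *Olfm4*, *Cps1*, *Dmbt1*, *Fcgbp*, *Lyz1*, *Ptma*, *Defa24*, *Rps2* and *Hsp90ab1*, which together made up 1.89 to 2.19% of all counts in WT and 0.461 to 0.738% where labelled null. *Sis*, the brush border sucrase-isomaltase, was the largest loss, at 138314, 101781 and 105137 in WT enteroids and 9489, 34651 and 20520.1 in those labelled null (log2 fold change -2.59, SE 0.42, adjusted p = 0.00151, limma). *Cps1*, which makes carbamoyl phosphate for the synthesis of citrulline, was 58638, 60103 and 45156 in WT enteroids and 24008, 18361 and 22579 in those labelled null (log2 fold change -1.33, adjusted p = 0.000526, limma). Sucrase-isomaltase fell while the lactase gene *Lct* rose, from 398, 665 and 618 to 5307, 2625 and 5571 (log2 fold change 2.96, adjusted p = 0.000304, limma).

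The stem cell gene *Lgr5* and most called Wnt receptors and inhibitors fell, while some ligands rose. *Lgr5*, which encodes an R-spondin receptor of crypt base stem cells, was 725, 914 and 816 in WT enteroids and 77, 97.7 and 58.5 in those labelled null (log2 fold change -3.40, adjusted p = 4.33e-05, limma). Of 28 tested genes of the Wnt list, 9 rose and 14 fell (4 and 17 in CPM), with a median of -0.51 against -0.0080 for all genes. Among the ligand genes and their handling factors, 4 of 7 tested rose, namely *Wnt4*, *Wnt7a*, *Wnt6* and *Porcn*, which attaches the lipid that Wnt proteins need. *Wnt7a* was 14.6, 6.25 and 6.7 in WT enteroids and 84, 57.8 and 76.1 in those labelled null and *Porcn* 42.1, 62.5 and 52.8 in WT enteroids and 273, 195 and 244 in those labelled null. The other 3 fell, which were *Wnt3*, the Paneth cell ligand, *Wnt9b* and the carrier *Wls*. *Wnt3* was 200.3, 198 and 169 in WT enteroids and 0, 6.64 and 1.1 in those labelled null (log2 fold change -6.23, adjusted p = 0.000344, limma). The libraries labelled null thus held at least 1119.9 counts of *Wnt4* and at most 6.64 of *Wnt3*, and the WT libraries at most 8.38 and at least 169.

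Among 15 tested receptor genes, 6 fell and 4 rose (1 in CPM). *Ror2*, a receptor of noncanonical Wnt signals, was 242, 235 and 379.7 in WT enteroids and 2.33, 14.2 and 1.1 in those labelled null (log2 fold change -5.88, adjusted p = 0.000418, limma), and *Fzd2* was 75, 95.8 and 50.3 in WT enteroids and 0, 1.9 and 0 in those labelled null. *Fzd4* (1.20) and *Fzd8* (0.98) rose, and *Fzd5* was 3897, 4040.5 and 4042 in WT enteroids and 5114, 5281 and 5794 in those labelled null (log2 fold change 0.43, adjusted p = 0.00286, limma). Of 6 tested inhibitors, 5 fell and 1 rose. *Sfrp5*, a secreted Wnt antagonist, was 77.7, 125 and 79.6 in WT enteroids and 0 in every library labelled null, at least 29.2-fold lower against the floor of 3 reads, while the Wnt target ligases *Znrf3* (-1.23) and *Rnf43* (-0.52), which remove Frizzled receptors, and *Nkd1* (-1.14) and *Apcdd1* (-2.80) fell. Of 10 reserve stem cell markers 3 rose and 5 fell, beside 30.0 and 28.9% of all tested genes. In CPM 1 of them rose and 6 fell, and 1 rose without WT library 1, WT library 3 or labelled null library 3. *Mex3a* (-2.24), *Sox9* (-1.63), *Lrig1* (-1.59) and *Dclk1* (-1.11) were lower, *Hopx* fell from 2925, 2987 and 2783 to 1574, 1232 and 1789 and *Clu* rose from 1252, 799 and 969 to 8487, 7898 and 2840.1, and for *Bmi1* the adjusted p was 0.0692 (log2 fold change -0.24, limma).

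Notch signals between neighbouring progenitors hold the secretory fate in check. Of 31 tested genes of this pathway, 5 rose and 14 fell, and in CPM 2 rose and 17 fell. Among 4 receptors, *Notch1* was 979, 825 and 691 in WT enteroids and 307, 318 and 251 in those labelled null (log2 fold change -1.50, adjusted p = 0.000308, limma), *Notch2* (-0.84) and *Notch4* (-1.57) fell, and *Notch3* did not pass (log2 fold change -0.18, adjusted p = 0.663, limma). Of the 4 tested ligands only *Dll4* was called, at 339, 359 and 225 in WT enteroids and 22.2, 45.5 and 18.7 in those labelled null (log2 fold change -3.45, adjusted p = 0.000276, limma). *Dll1*, which secretory progenitors present to their neighbours, was 1177, 1088 and 906 in WT enteroids and 973, 723 and 1050 in those labelled null (log2 fold change -0.22, adjusted p = 0.278, limma), so its groups overlapped in range. The targets *Hes1* (-0.94) and *Nrarp* fell, as did *Hes6* (-0.50), a relative of *Hes1*. *Nrarp*, a feedback inhibitor of the pathway, was 675, 678 and 683 in WT enteroids and 119, 110 and 104 in those labelled null (log2 fold change -2.61, adjusted p = 1.75e-05, limma). *Ncstn*, a subunit of the secretase that cleaves the receptors, was among the 5 rises (0.73). The median of the processing and nuclear factors changed sign between scalings (0.022 under the authors' factors and -0.30 in CPM).

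Nearly all secretory transcription factors that were tested fell. Over the list, 27 of 32 tested members fell, each at least 2-fold, and 3 rose, beside 28.9 and 30.0% of all genes. The rises were 1 in CPM and without WT library 2, labelled null library 1 or labelled null library 3. In the group for secretory commitment, 11 of 13 fell, with a median of -2.43. *Atoh1*, which commits progenitors to the secretory fate, was 373, 369.7 and 354 in WT enteroids and 2.33, 26.6 and 22.1 in those labelled null (log2 fold change -4.83, SE 0.72, adjusted p = 0.00113, limma). *Spdef*, which acts after it in goblet and Paneth cells, was 647, 666 and 517 in WT enteroids and 9.33, 29.4 and 16.5 in those labelled null (log2 fold change -5.10, adjusted p = 9.15e-05, limma). *Gfi1*, a repressor that is itself a known MTG partner, was 89.6, 109 and 62.9 in WT enteroids and 1.17, 2.84 and 7.72 in those labelled null (log2 fold change -4.37, adjusted p = 0.000548, limma). All 3 libraries labelled null lay below every WT library in these genes. The 2 rises of this group were *Klf4* (1.16), which is also a villus gene, and *Xbp1*, whose log2 fold change of 0.29 was negative in CPM and after quantile normalization.

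Enteroendocrine factors fell further, 15 of 17 with a median of -4.39. *Insm1*, an early factor of the lineage, was 198, 194 and 199 in WT enteroids and 0, 2.84 and 3.31 in those labelled null (log2 fold change -6.28, adjusted p = 0.000179, limma). *Neurod1* was 69.5, 53.1 and 56.2 in WT enteroids and 0, 0.948 and 0 in those labelled null, and *Rfx6* 69.5, 96.8 and 73.8 in WT enteroids and 2.33, 0.948 and 0 in those labelled null. The further enteroendocrine factors *Pax6*, *Isl1*, *Lmx1a*, *Fev* and *Etv1* had WT means of at most 45.1 and at most 1.90 counts in each library labelled null. For tuft cells, *Pou2f3*, their defining factor, fell from 46.6, 44.8 and 35.2 to 25.7, 12.3 and 13.2 (log2 fold change -1.32, adjusted p = 0.0135, limma), and *Spib* was 93.3, 71.9 and 51.1 in WT enteroids and 60.6, 32.2 and 30.9 in those labelled null (log2 fold change -0.82, adjusted p = 0.073, limma). Tuft cell markers changed less than those of the other secretory cells. Of 5 tested, 3 fell and 2 did not pass, with a median of -0.70. The medians were -4.30 for goblet, -5.54 for Paneth and -5.86 for enteroendocrine cell markers.

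Most secretory products fell as well. All 18 tested alpha-defensins, the antimicrobial peptides of Paneth cells, fell, with a median of -5.79, and these genes share reads among near-identical copies. The median was -7.33 without labelled null library 2 and -4.21 without labelled null library 1. Their summed count was 65582, 54535 and 101457 in WT and 153, 11746 and 957 in the libraries labelled null, lowest in library 1 and highest in library 2. *Lyz1*, the Paneth lysozyme, had the same order among them, at 32441, 27119 and 23784 in WT enteroids and 265, 2026 and 543 in those labelled null (log2 fold change -5.38, adjusted p = 0.000435, limma). Of 20 other Paneth products, 13 fell, 2 rose and 5 did not pass, which were *Reg3a*, *Reg3b*, *Reg3g*, *Reg1* and *Egf*. *Reg3b*, an antibacterial lectin that enterocytes make too, was 8557, 3413 and 1404 in WT enteroids and 3814, 28891 and 10211 in those labelled null (log2 fold change 1.59, adjusted p = 0.127, limma). The pancreatic lipase relative *Pnliprp2* rose, from 383, 309 and 604 to 4143, 2441 and 5233 (log2 fold change 3.17, adjusted p = 0.000265, limma).

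For goblet cells, 14 of 18 tested products fell. *Fcgbp*, a mucus-binding protein, was 34095, 28938 and 33538 in WT enteroids and 911, 1965 and 1579 in those labelled null (log2 fold change -4.50, adjusted p = 3.58e-05, limma). *Spink4* (-5.29), *Ang4* (-4.89), *Agr2* (-4.81) and *Tff3* (-4.30) also fell. The 4 that rose were *Guca2a*, *Guca2b*, *Gucy2c* and *Muc13*, the guanylin peptides, their receptor and a membrane mucin, which enterocytes make as well. *Guca2b* was 3927, 2867 and 2872 in WT enteroids and 12681, 8159.9 and 14918 in those labelled null (log2 fold change 1.86, adjusted p = 0.000531, limma).

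Of 11 tested hormone precursors, 7 fell and 2 rose. *Gcg*, the proglucagon of L cells, was 893, 956 and 938 in WT enteroids and 11.7, 23.7 and 6.62 in those labelled null (log2 fold change -6.12, adjusted p = 5.56e-05, limma). *Cck* was 965, 804 and 882 in WT enteroids and 23.3, 22.8 and 28.7 in those labelled null, and *Tac1* 499, 383 and 608 in WT enteroids and 5.83, 10.4 and 4.41 in those labelled null. In each of these, all 3 libraries labelled null were below every WT library. *Sct*, the secretin gene, was 113, 101 and 80.5 in WT enteroids and 56, 45.5 and 105 in those labelled null (log2 fold change -0.59, adjusted p = 0.152, limma). Among genes of amine synthesis and granules, 7 of 10 fell, with *Chgb* at 5147, 4413 and 6584 in WT enteroids and 45.5, 89.1 and 103 in those labelled null and *Chga* at 677, 706 and 889 in WT enteroids and 8.16, 21.8 and 25.4 in those labelled null. The 3 that rose were *Ddc*, *Slc18a1* and *Cpe*. *Ddc*, an amine-forming decarboxylase that enterocytes use too, was 4738, 3577 and 3831 in WT enteroids and 15653, 9596 and 10318 in those labelled null (log2 fold change 1.53, adjusted p = 0.00061, limma), and *Cpe*, a carboxypeptidase of hormone processing, 386, 317 and 339 in WT enteroids and 6839.5, 4114 and 5906 in those labelled null (log2 fold change 3.99, adjusted p = 1.8e-05, limma).

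Enterocyte transcription factors rose as a group, 30 of 39 with 2 falls and a median of 0.64, and in CPM 18 rose and 5 fell. Of the villus program, 8 of 10 rose. *Maf*, a regulator of villus enterocyte genes, was 545, 422 and 541 in WT enteroids and 2272, 1601 and 2251 in those labelled null (log2 fold change 2.01, adjusted p = 0.000135, limma). *Creb3l3*, which controls triglyceride genes, was 4129, 3627 and 3603 in WT enteroids and 13607, 9944 and 15255 in those labelled null (log2 fold change 1.75, adjusted p = 0.000185, limma). *Prdm1*, the repressor Blimp-1 that delays maturation before weaning, rose too (1.72). Among nuclear receptors, 12 of 15 rose, led by *Nr0b2* (SHP), *Nr1h4* (FXR, the bile acid receptor) and *Ppara*. *Nr0b2*, a target of the bile acid receptor, was 11.9, 14.6 and 26 in WT enteroids and 209.9, 139 and 197 in those labelled null (log2 fold change 3.36, adjusted p = 0.000236, limma), and *Nr1h4* 827, 594 and 679 in WT enteroids and 1945, 1526 and 2040.4 in those labelled null (log2 fold change 1.39, adjusted p = 0.000378, limma). *Rarb* (-4.48) and *Cdx1* (-0.75) were the 2 falls. Of 13 gut identity factors 8 rose and 1 fell, against 2 and 2 in CPM. *Hnf4g* rose (1.14), while *Hnf4a* was 23950, 23792 and 24254 in WT enteroids and 28106, 27372 and 28938 in those labelled null (log2 fold change 0.23, adjusted p = 0.0717, limma), and its difference was negative in CPM and after quantile normalization.

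Genes of absorption rose in nearly every group. In fat absorption, 31 of 33 tested genes rose and 1 fell, with a median of 1.53, and the list went from 0.976 to 1.17% of all counts in WT to 2.34 to 3.31% in the libraries labelled null. All 10 chylomicron genes rose. *Apoa1* was 18712, 14489.5 and 13454 in WT enteroids and 110765, 81311 and 141494 in those labelled null (log2 fold change 2.82, SE 0.22, adjusted p = 0.000116, limma). *Mttp*, which loads fat onto apolipoprotein B, was 39338, 31191 and 29250.3 in WT enteroids and 127423, 84622 and 112186 in those labelled null (log2 fold change 1.69, adjusted p = 0.000443, limma). The uptake genes *Cd36* (2.21), *Slc27a4* (2.10) and *Fabp2* (1.96) rose, and *Gpat4* (-0.48) was the only fall. Of 28 genes of fatty acid oxidation, 25 rose and none fell. *Acadl*, a long-chain dehydrogenase, was 5339, 3903 and 4280.1 in WT enteroids and 17843, 11326 and 18209 in those labelled null (log2 fold change 1.79, adjusted p = 0.000387, limma).

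Peptide and amino acid handling had a median of 1.85, above that of fat absorption. Of 15 peptidases 14 rose, with a median of 2.23. *Xpnpep2*, an aminopeptidase that removes residues before proline, was 144, 134 and 101 in WT enteroids and 2246, 2004 and 2289.7 in those labelled null (log2 fold change 4.11, adjusted p = 7.99e-06, limma). *Ace* was 1188, 1084 and 979 in WT enteroids and 10908, 8327 and 13378 in those labelled null (log2 fold change 3.30, adjusted p = 2.62e-05, limma), and *Anpep* 9089.6, 9267 and 9657 in WT enteroids and 65132, 44101 and 100074 in those labelled null (log2 fold change 2.82, adjusted p = 0.000207, limma). The exception was enteropeptidase, *Tmprss15*, which fell from 93.3, 65.6 and 29.3 to 19.8, 18 and 33.1 (log2 fold change -1.27, adjusted p = 0.042, limma), although library 3 of those labelled null was above WT library 3. Of 17 transporters 12 rose, among them the peptide carrier *Slc15a1*, which was 843, 753 and 697 in WT enteroids and 8436, 5264 and 9055 in those labelled null (log2 fold change 3.27, adjusted p = 5e-05, limma). The 3 that fell, *Slc1a1* (-1.66), *Slc1a5* (-1.07) and *Slc7a5* (-0.98), take up acidic amino acids, glutamine and large neutral amino acids.

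In sugar handling, 8 of 9 genes of digestion and uptake rose, with *Sis* as the 1 fall. The summed share of these 9 genes was nonetheless lower, at 0.841 to 0.982% of all counts in WT and 0.668 to 0.764% in the libraries labelled null. *Slc2a5*, the fructose transporter, was 4025, 3325 and 2096 in WT enteroids and 10419.6, 7292 and 8193 in those labelled null (log2 fold change 1.49, adjusted p = 0.00147, limma). *Pck1*, the first enzyme of gluconeogenesis from oxaloacetate, was 14.6, 20.8 and 10.9 in WT enteroids and 737, 133 and 1247 in those labelled null (log2 fold change 4.96, SE 0.74, adjusted p = 0.00111, limma), while its mitochondrial partner *Pck2* fell (-0.85). Of 17 glycolysis genes 10 rose, 1 fell and 6 did not pass, and their median of 0.40 was -0.028 after quantile normalization. Without WT library 3, 6 of them rose. The fall was *Hk2* (-1.28).

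Among ion and water transport genes, 27 of 42 rose and 7 fell. In a group of 25 genes listed as apical, which took in aquaporins of either membrane, 16 rose. They were led by the phosphate carrier *Slc34a2*, which was 11.9, 9.37 and 10.1 in WT enteroids and 362, 290.2 and 542 in those labelled null (log2 fold change 5.08, adjusted p = 3.01e-05, limma). *Aqp7* (4.25), *Aqp3* (3.65) and *Clca4a* (3.39) followed. *Aqp4* and *Aqp1* fell, and *Aqp4* was 2088, 2226 and 1222 in WT enteroids and 54.8, 79.7 and 82.7 in those labelled null (log2 fold change -4.63, adjusted p = 3.56e-05, limma). In the group of basolateral and other transport genes, the iron exporter *Slc40a1* rose from 468, 451 and 643 to 4661, 2245 and 2728. The chloride-secretory cotransporter *Slc12a2*, a crypt gene, fell from 24293, 20132 and 19761 to 5332, 4026 and 3590.1 (log2 fold change -2.32, adjusted p = 7.48e-05, limma). The potassium channel subunit *Kcne3* (-2.0) and the urea transporter *Slc14a1* (-5.45) fell with it.

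Most genes of the brush border, the mid villus and the villus tip rose. Of 20 microvillus genes 19 rose, with a median of 1.03. *Cdhr2*, a cadherin that links microvilli, was 11186, 8452 and 11244 in WT enteroids and 45367, 28635 and 43304 in those labelled null (log2 fold change 1.91, adjusted p = 0.000308, limma), and *Espn*, an actin bundler, 699, 531 and 439 in WT enteroids and 2632, 1983 and 3067 in those labelled null (log2 fold change 2.20, adjusted p = 0.000209, limma). All 11 tested genes of the mid villus rose, each at least 2-fold. Of 20 villus tip genes 15 rose, 13 of them at least 2-fold, and none fell. At the tip, *Ada*, adenosine deaminase, was 1893, 1186 and 1785 in WT enteroids and 35205, 6379.9 and 26055 in those labelled null (log2 fold change 3.50, adjusted p = 0.00157, limma). *Enpp3* was 104, 71.9 and 80.5 in WT enteroids and 5609, 2062 and 4160.3 in those labelled null, and *Slc28a2*, a purine nucleoside carrier, 95.1, 86.4 and 111 in WT enteroids and 4721, 1288 and 2917 in those labelled null. Of 12 villus base genes 4 rose (2 in CPM) and 1 fell, *Dmbt1*, so 41.7% were called, beside 58.9% of all tested genes. Among 24 tested claudin and junction genes, 15 rose but only 2 of them, *Gjb1* (1.36) and *Cldn23* (1.09), at least 2-fold, and *Cldn2*, a pore-forming claudin of crypts, fell (-0.55). In CPM 2 of these 24 rose and 3 fell, and 9 rose without WT library 2 or WT library 3. *Krt20*, the keratin of mature enterocytes, was 7786, 5306 and 9942 in WT enteroids and 42601, 23097 and 46071 in those labelled null (log2 fold change 2.26, adjusted p = 0.000764, limma).

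**Figure D3:**
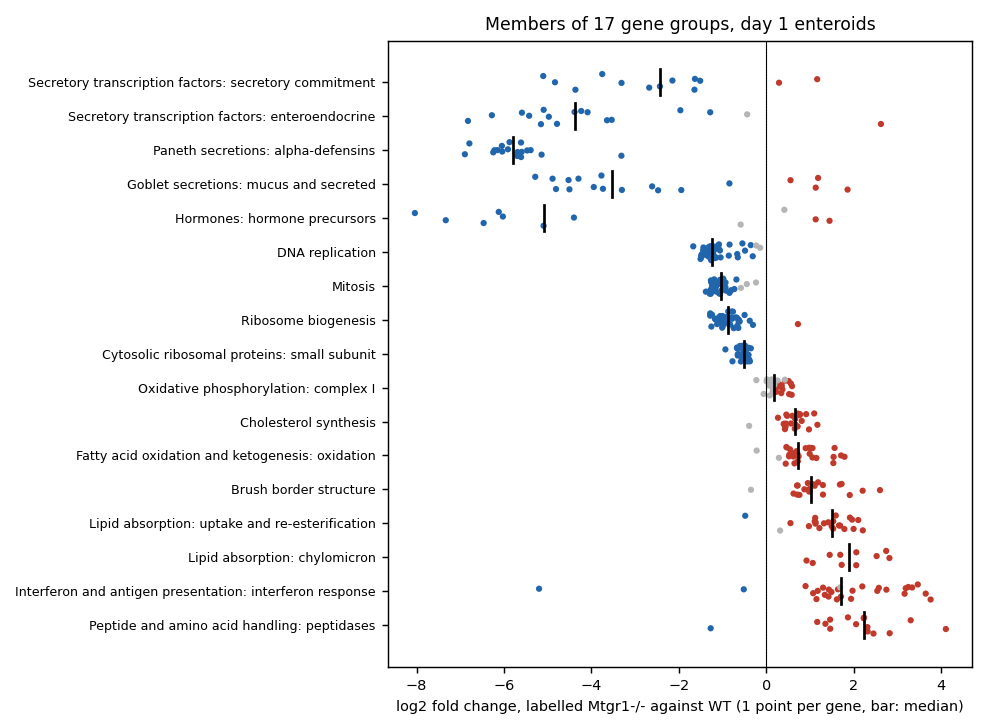
Log2 fold changes, libraries labelled Mtgr1-/- against WT, of the tested members of 17 gene groups, 1 point per gene, red for called rises, blue for called falls and grey for an adjusted p of 0.05 or more (limma). Black bars are group medians, which run from -5.79 for the alpha-defensins to 2.23 for the peptidases, and that of the defensins was -7.33 without labelled null library 2.

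Genes of dividing cells fell together and by narrow amounts. Of 46 DNA replication genes 44 fell and none rose, with a median of -1.24. *Mcm2*, a subunit of the replicative helicase, was 3299.7, 3281 and 3580.3 in WT enteroids and 1103, 1531 and 1003 in those labelled null (log2 fold change -1.50, adjusted p = 0.000276, limma). *Gins2* fell most (-1.67), and *Pcna*, the sliding clamp, was 7212, 6895 and 7193 in WT enteroids and 6586, 6433 and 6299 in those labelled null (log2 fold change -0.14, adjusted p = 0.14, limma). Of 46 mitosis genes 43 fell, with a median of -1.04. *Top2a*, which untangles chromosomes, was 12033, 12243 and 12288 in WT enteroids and 4773, 5897 and 3623 in those labelled null (log2 fold change -1.38, adjusted p = 0.000459, limma), and *Plk1* 2472, 2689 and 2505 in WT enteroids and 945, 1408 and 902 in those labelled null (log2 fold change -1.26, adjusted p = 0.000662, limma). Labelled null library 2 lay between the others and WT in *Top2a* and *Plk1*. Of 18 G1 genes 13 fell and none rose, among them *Ccnd1* (-1.59), *E2f7* (-1.39) and *Cdk2* (-1.31), the regulators of entry into replication. The inhibitors were mixed, 8 up and 5 down of 16, with 4 up in CPM. *Cdkn1a* (p21) was 2396, 1959.8 and 2232 in WT enteroids and 5266, 3755 and 5851 in those labelled null (log2 fold change 1.15, adjusted p = 0.000961, limma) and *Cdkn2b* (p15) 960.3, 875 and 962 in WT enteroids and 2552, 2065 and 3845 in those labelled null (log2 fold change 1.55, adjusted p = 0.000693, limma), while *Cdkn2c* (p18) fell (-1.40).

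Promoters of this group are shown because cell cycle genes are known for CCAAT boxes and for the cell cycle homology region, to which the MuvB complexes bind. Each sequence gives the 250 bases before a RefSeq start site (GRCm38.p6), on the gene's strand, with the letters CCAAT or TTTGAA on either strand in capitals, so ATTGG and TTCAAA mark the reverse strand. *Cdk1* is at chr10:69352913-69353162, minus strand, and *Top2a* at chr11:99024190-99024439, minus strand.
Cdk1: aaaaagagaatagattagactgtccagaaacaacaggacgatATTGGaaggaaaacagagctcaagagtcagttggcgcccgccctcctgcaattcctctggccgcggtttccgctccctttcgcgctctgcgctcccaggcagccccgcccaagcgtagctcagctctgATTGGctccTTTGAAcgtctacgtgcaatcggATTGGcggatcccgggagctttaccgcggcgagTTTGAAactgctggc
Top2a: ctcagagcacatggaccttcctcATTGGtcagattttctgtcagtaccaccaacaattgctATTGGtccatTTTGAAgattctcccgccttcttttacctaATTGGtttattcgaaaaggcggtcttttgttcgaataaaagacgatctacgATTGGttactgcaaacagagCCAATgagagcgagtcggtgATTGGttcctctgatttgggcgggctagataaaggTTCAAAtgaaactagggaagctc
CCAAT stood in 28 of 38 tested mitosis genes with a promoter entry (73.7%) and in 25 of 37 replication genes (67.6%), beside 37.2% of all 10020 tested genes with one. TTTGAA stood in 36.8% of the mitosis promoters, 13.5% of the replication promoters and 10.9% of all tested. A match describes the letters of the window and is not a bound site.

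Growth genes fell with division. Of 40 ribosome biogenesis genes 39 fell, with a median of -0.88, and 72 of 73 cytosolic ribosomal protein genes fell, none of them 2-fold, with a median of -0.50. *Rrp1b*, a nucleolar processing factor, was 1039.8, 1228 and 1355 in WT enteroids and 484, 658 and 374 in those labelled null (log2 fold change -1.29, adjusted p = 0.00142, limma). *Rps2* was 44016, 45335 and 45807 in WT enteroids and 29794, 18510.2 and 23666 in those labelled null (log2 fold change -0.94, adjusted p = 0.00283, limma), the largest fall among ribosomal proteins. Ribosomal protein genes took 4.23 to 4.59% of all counts in WT and 2.24, 3.01 and 2.26% in the libraries labelled null. *Mycn*, at 32.9, 45.8 and 46.1 in WT enteroids and 59.5, 70.2 and 77.2 in those labelled null, was the 1 biogenesis gene that rose (log2 fold change 0.72, adjusted p = 0.0311, limma). *Rpl34* did not pass (log2 fold change -0.17, adjusted p = 0.162, limma).

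Mitochondrial genes moved little. Of 76 nuclear genes of oxidative phosphorylation 34 rose, none 2-fold, and none fell, but their median of 0.25 was -0.075 in CPM, with 3 rises and 9 falls, and -0.0040 after quantile normalization. Without WT library 3 the rises were 19, and without labelled null library 3 they were 22. The mitochondrial genome took 5.67 to 6.29% of the counts in WT and 5.81 to 6.99% in the others, and 2 of its 13 genes were called. In the tricarboxylic acid cycle, 11 of 20 enzymes rose and 1 fell, against 7 and 8 in CPM. *Pcx*, pyruvate carboxylase, was 573, 373 and 584 in WT enteroids and 2640.2, 1771 and 2886 in those labelled null (log2 fold change 2.25, adjusted p = 0.000282, limma), and *Idh2* 2217, 2456 and 1945 in WT enteroids and 782, 1069.7 and 758 in those labelled null (log2 fold change -1.35, adjusted p = 0.000386, limma). The other called genes of the cycle stayed within 2-fold, and the median of the list (0.35) was -0.0040 after quantile normalization.

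Sterol synthesis rose as a block, 23 of 24 genes and none lower, with a median of 0.66, and in CPM 14 rose and 1 fell. *Msmo1* was 7298, 5694 and 7381 in WT enteroids and 16733, 13027 and 15993 in those labelled null (log2 fold change 1.17, adjusted p = 0.000504, limma). *Hmgcs1*, the first committed step, was 15656, 12955 and 16084 in WT enteroids and 27634, 22662 and 25167 in those labelled null (log2 fold change 0.76, adjusted p = 0.00179, limma). The range of log2 fold changes was narrow, and 2 of the 23 reached 2-fold. The promoter of *Hmgcs1* (chr13:119690101-119690350, plus strand) is given because 15 of 16 promoters of this list held CCAAT (93.8%), which stands in capitals on either strand.
Hmgcs1: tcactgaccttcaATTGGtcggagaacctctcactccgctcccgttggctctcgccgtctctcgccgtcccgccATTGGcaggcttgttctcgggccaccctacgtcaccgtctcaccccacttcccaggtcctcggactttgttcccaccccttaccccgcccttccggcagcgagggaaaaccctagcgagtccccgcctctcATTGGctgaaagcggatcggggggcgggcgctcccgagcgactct
Fatty acid synthesis was divided. *Scd1*, the stearoyl desaturase, was 511, 1729.7 and 233 in WT enteroids and 7931, 2526 and 5505 in those labelled null (log2 fold change 3.02, adjusted p = 0.00731, limma), and *Me1* rose too (1.90). *Fads1* (-2.09) and *Fads2* (-1.20), the desaturases of polyunsaturated fats, fell. Over 15 tested genes 6 rose and 3 fell, against 4 and 6 in CPM, and the median of 0.35 was -0.073 after quantile normalization.

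Detoxifying enzymes were among the broadest rises. Of 71 tested genes 56 rose and 5 fell, and the list went from 2.34 to 2.73% of all counts in WT to 3.98 to 4.62% in the libraries labelled null. In the group of aldo-keto reductases and cytochrome P450 genes, 20 of 23 rose. *Cyp3a13* was 11358, 8818 and 10345 in WT enteroids and 79744, 41602 and 74459 in those labelled null (log2 fold change 2.63, adjusted p = 0.000207, limma), and *Cyp3a11* 5329.9, 3575 and 5672 in WT enteroids and 35482, 22088 and 18984 in those labelled null (log2 fold change 2.37, adjusted p = 0.000344, limma). *Cyp27a1*, which oxidizes sterols and bile acids, was 94.2, 81.2 and 140 in WT enteroids and 931, 719.7 and 1161 in those labelled null (log2 fold change 3.16, adjusted p = 0.000109, limma). *Akr1c14* ran against its relatives, at 722, 606 and 880 in WT enteroids and 5.83, 14.2 and 1.1 in those labelled null (log2 fold change -6.92, adjusted p = 0.000194, limma). Of 26 NRF2 targets 18 rose and 2 fell, and *Gpx2* and *Gpx3*, both glutathione peroxidases, were the falls (-0.71 and -2.88). Of 22 phase II genes 18 rose, with *Gstk1* at 2.12, *Sult1d1* at 1.94 and *Ugt1a1* at 1.77.

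Interferon response genes, which cells switch on through STAT and IRF factors, rose in most cases. Of 28 tested genes 25 rose, 24 of them at least 2-fold, and 2 fell, with a median of 1.70 (2.29 without labelled null library 2). *Oas2*, an antiviral synthetase, was 22.9, 38.5 and 12.6 in WT enteroids and 356, 91 and 965 in those labelled null (log2 fold change 3.76, adjusted p = 0.00479, limma). *Ifit1* was 202, 306 and 101 in WT enteroids and 2461, 789 and 4386 in those labelled null (log2 fold change 3.46, adjusted p = 0.00244, limma), and *Isg15*, a ubiquitin-like modifier, 164, 260.3 and 111 in WT enteroids and 1890.3, 536 and 4058 in those labelled null (log2 fold change 3.25, adjusted p = 0.00431, limma). *Irf7*, which amplifies the response, was 686, 813 and 569.9 in WT enteroids and 3951, 1899 and 8340.4 in those labelled null (log2 fold change 2.54, adjusted p = 0.00249, limma). In each of these, library 3 was the highest and library 2 the lowest of those labelled null, yet library 2 was above every WT library. Lymphocyte markers summed to 114, 110.4 and 493 in WT enteroids, and to 21.0, 33.2 and 649 where labelled null. Those of macrophages summed to 134, 128 and 204 against 120.1, 138 and 511. The part of these cells in the interferon rises of any library, and in the higher values of library 3, was not tested. *Gvin1*, a large interferon-inducible GTPase, was 1001, 1945 and 888 in WT enteroids and 8.16, 53.1 and 69.5 in those labelled null (log2 fold change -5.20, adjusted p = 0.00083, limma), and *Irf8* fell (-0.52).

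Promoters of 3 of these genes show the interferon-stimulated response element, the site of the STAT and IRF complexes, searched as GAAA, any 2 bases and GAAA on both strands and set in capitals. Overlapping matches run together, as in *Isg15*. *Ifit1* is at chr19:34640639-34640888, plus strand, *Isg15* at chr4:156200819-156201068, minus strand, and *Rsad2* at chr12:26456453-26456702, minus strand.
Ifit1: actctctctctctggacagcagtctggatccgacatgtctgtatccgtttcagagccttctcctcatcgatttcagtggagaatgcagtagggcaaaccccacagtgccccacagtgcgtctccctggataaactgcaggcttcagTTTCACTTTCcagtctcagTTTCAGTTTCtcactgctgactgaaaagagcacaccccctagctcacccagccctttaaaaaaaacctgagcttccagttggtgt
Isg15: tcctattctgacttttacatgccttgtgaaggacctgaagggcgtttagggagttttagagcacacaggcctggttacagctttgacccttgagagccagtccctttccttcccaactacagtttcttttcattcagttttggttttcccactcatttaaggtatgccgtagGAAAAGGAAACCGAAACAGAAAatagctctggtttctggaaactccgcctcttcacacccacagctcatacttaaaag
Rsad2: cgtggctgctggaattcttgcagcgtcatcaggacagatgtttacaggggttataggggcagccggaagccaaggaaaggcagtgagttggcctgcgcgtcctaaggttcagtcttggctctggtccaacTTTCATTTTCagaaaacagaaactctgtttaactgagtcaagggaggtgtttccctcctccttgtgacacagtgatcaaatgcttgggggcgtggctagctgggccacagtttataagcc
The letters stood in 12 of 20 tested genes of the group with a promoter entry (60.0%) and in 2.67% of all tested genes. *Rsad2* itself was 21, 52.1 and 31 in WT enteroids and 508, 87.2 and 857 in those labelled null (log2 fold change 3.34, adjusted p = 0.00733, limma).

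Antigen presentation split by class. Genes of class I rose, with *B2m* at 9097, 8155 and 5924 in WT enteroids and 18676, 10533 and 22476 in those labelled null (log2 fold change 1.11, adjusted p = 0.0108, limma) and *H2-K1* at 15079.9, 14174 and 11509 in WT enteroids and 30685, 22044 and 39012 in those labelled null (log2 fold change 1.14, adjusted p = 0.00269, limma), and *Tap1*, which carries peptides to them, at 631, 781 and 608 in WT enteroids and 1494, 773 and 2526 in those labelled null (log2 fold change 1.09, adjusted p = 0.0351, limma), where library 2 overlapped WT. Genes of class II fell. *Cd74*, the invariant chain, was 7269, 5366 and 4325 in WT enteroids and 431, 839 and 1156 in those labelled null (log2 fold change -2.88, adjusted p = 0.00049, limma). *Ciita*, their master regulator, was 119.8, 91.6 and 149 in WT enteroids and 4.66, 29.4 and 30.9 in those labelled null (log2 fold change -2.75, adjusted p = 0.0074, limma). *H2-Aa* was 951, 644 and 313 in WT enteroids and 32.7, 67.3 and 211 in those labelled null, and *H2-Ab1* 1565, 1259 and 1012 in WT enteroids and 122, 217 and 372 in those labelled null. Over the 17 tested genes of the role, 7 rose and 7 fell, all 7 falls being class II genes or *Ciita* and at least 2-fold. Library 1 of those labelled null was the lowest in *Cd74* and *Ciita*, and all 3 were below WT.

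**Figure D4:**
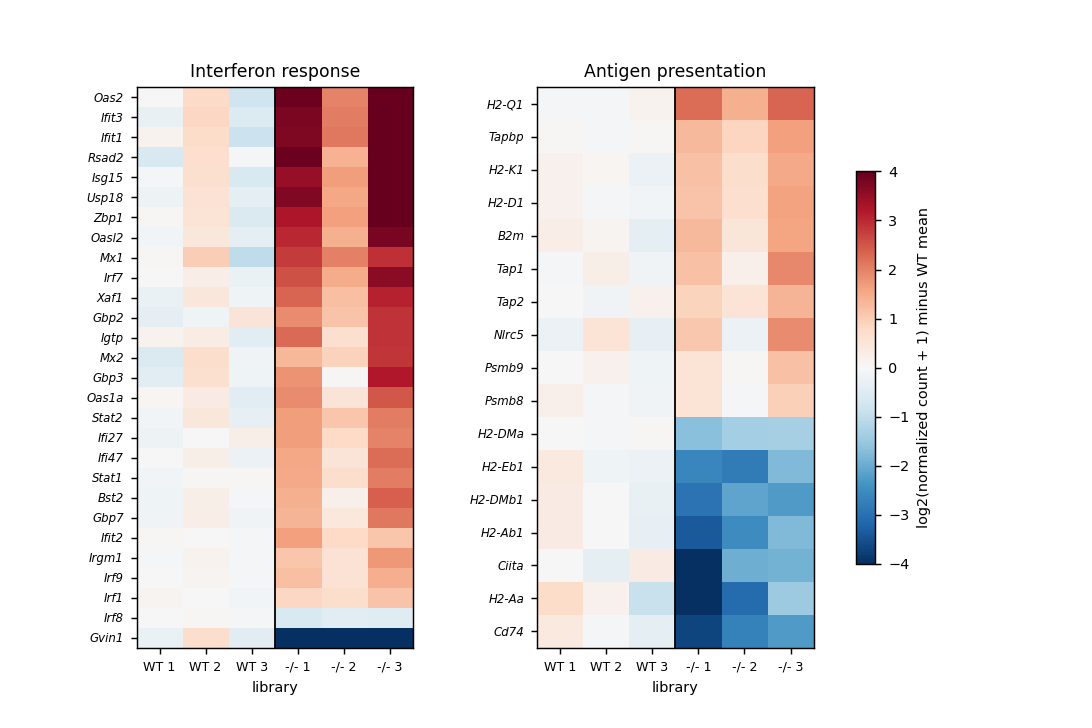
Each cell is 1 gene in 1 library, coloured by log2(normalized count + 1) minus the mean of the 3 WT libraries, with colours cut at -4 and 4. The 3 libraries labelled Mtgr1-/- stand to the right of the line, where 25 of 28 interferon response genes were called higher and, in the right panel, the class II genes lower.

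Epithelial cytokines rose. Of 16 tested cytokines and receptors 11 rose and 1 fell. *Il1a*, an alarmin, was 0, 0 and 5.03 in WT enteroids and 74.6, 31.3 and 58.5 in those labelled null (log2 fold change 4.85, adjusted p = 0.00147, limma). *Il1rn*, the antagonist of its receptor, was 1443, 955 and 1536 in WT enteroids and 7539, 4939 and 6416 in those labelled null (log2 fold change 2.27, adjusted p = 0.000207, limma), and *Il33* 864, 373 and 520.5 in WT enteroids and 2562, 1393 and 1497 in those labelled null. *Ccl20* (1.5) and *Cx3cl1* (1.13) rose among chemokines, and *Ccl6* (-5.51) and *Ccl9* (-5.33) fell. *Ccl6* was 1294, 914 and 766 in WT enteroids and 4.66, 40.8 and 39.7 in those labelled null. *Tnfrsf19*, a Wnt target of stem cells, was the receptor that fell (-3.81).

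Matrix and guidance genes held some of the largest single changes. *Nid1*, a basement membrane linker, was 21.9, 6.25 and 36 in WT enteroids and 631, 833 and 1229 in those labelled null (log2 fold change 5.56, adjusted p = 0.000264, limma). *Fn1*, fibronectin, was 22.9, 24 and 16.8 in WT enteroids and 1352, 259.8 and 658 in those labelled null (log2 fold change 4.81, adjusted p = 0.000352, limma), and *Col18a1* 10.1, 9.37 and 13.4 in WT enteroids and 196, 168 and 136 in those labelled null. Against them, *Hspg2*, perlecan, fell from 675, 892 and 809.6 to 24.5, 57.8 and 21 (log2 fold change -4.62, adjusted p = 0.000107, limma), and *Lamb1* fell (-3.76). Of 8 fibroblast markers only 1 passed the minimum and was tested, and *Vim* was the highest. Their sum was 163 to 253 in WT and 10.5, 18.0 and 54.0 in the libraries labelled null. The cell source of the *Fn1* and *Nid1* reads was not tested. In the ephrin system, which sorts crypt from villus cells, 4 of 12 tested genes rose and 6 fell, beside 30.0 and 28.9% of all tested genes. The ligands *Efna3* (-3.85) and *Efna4* (-2.27) and the receptors *Ephb2* (-0.92), *Ephb3* and *Ephb4* (-1.65) were among the falls. The rises were the ligands *Efna1* (1.00), *Efnb1* (0.61) and *Efnb2* and the receptor *Epha1* (0.88). *Ephb3* was 1033, 902 and 872 in WT enteroids and 134, 182 and 124 in those labelled null (log2 fold change -2.68, adjusted p = 5.31e-05, limma), and *Efnb2* 4043, 3360.5 and 3951 in WT enteroids and 6806, 6259 and 7445 in those labelled null (log2 fold change 0.85, adjusted p = 0.000562, limma). *Slit2* fell, from 346, 244 and 249 to 35, 38.9 and 25.4, as *Slit3* rose.

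In the BMP pathway 14 of 33 tested genes rose and 7 fell, and the median of the list (0.23) was -0.089 in CPM. Of 8 ligands 4 rose and 1 fell, and of 6 targets 5 rose and 1 fell. *Bmp2* was 326, 212 and 251 in WT enteroids and 1212, 492 and 1621 in those labelled null (log2 fold change 1.93, adjusted p = 0.00462, limma), and *Bmp8b* 314, 177 and 310.1 in WT enteroids and 1923, 1291 and 1621 in those labelled null (log2 fold change 2.62, adjusted p = 0.000207, limma). *Bmp7* fell (-2.17). Of the Id genes, which are BMP targets and inhibitors of E proteins, *Id3* was 148, 167 and 205 in WT enteroids and 559, 377 and 658 in those labelled null (log2 fold change 1.59, adjusted p = 0.000891, limma), *Id2* 342, 259 and 269.9 in WT enteroids and 971, 723 and 565 in those labelled null and *Id1* 232, 258 and 268 in WT enteroids and 357, 376 and 375 in those labelled null, while *Id4* was 57.6, 76 and 41.1 in WT enteroids and 0, 5.69 and 0 in those labelled null (log2 fold change -4.93, adjusted p = 0.00139, limma). Of 13 receptors and signal proteins 3 rose and 3 fell (46.2% called, beside 58.9% of all tested genes). Of these 13, 1 rose without WT library 1, WT library 2, labelled null library 1 or labelled null library 3, and 5 rose with the replicate block. Their median of 0.13 was -0.19 in CPM. In the EGF family 7 of 18 tested genes rose and 2 fell, against 4 and 6 in CPM, and the median of 0.18 was -0.14 in CPM. Of its members, 1 of 7 tested ligands, *Tgfa*, was called (0.74), and *Erbb3* (1.05) and the feedback phosphatase gene *Dusp6* rose. *Dusp6* was 1108, 648 and 1568 in WT enteroids and 4289, 1789 and 4557 in those labelled null (log2 fold change 1.65, adjusted p = 0.0104, limma).

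Genes of the revival stem cell, a state that follows injury, rose in 13 of 20 tested members and fell in 2, with a median of 0.94. *Clu*, its defining gene, rose (log2 fold change 2.54, adjusted p = 0.00133, limma). *Anxa5* was 495, 380.1 and 686 in WT enteroids and 2585, 1630.1 and 2050.4 in those labelled null, and *Msln* 1570.3, 931 and 1041 in WT enteroids and 4864, 4711 and 2712 in those labelled null. *Cd44* (-1.12) and *Anxa10* (-0.78) were the falls. A list of YAP targets, which also held the pathway gene *Wwtr1*, was mixed, with 6 up and 4 down of 16 (62.5% called, beside 58.9% of all tested genes). *Ccn2* was 106, 55.2 and 108 in WT enteroids and 522, 378 and 218 in those labelled null (log2 fold change 2.02, adjusted p = 0.00259, limma). *Wwtr1*, which encodes the YAP relative TAZ, was 345, 219 and 249 in WT enteroids and 84, 79.7 and 29.8 in those labelled null (log2 fold change -2.16, adjusted p = 0.00259, limma). The median of this list (0.21) was -0.11 in CPM. Immediate early genes were called in 11 of 19 cases (57.9%), close to the 58.9% of all tested genes. Of these, 7 were up and 4 down, and *Zfp36* (1.05) and *Nr4a1* (-1.06) reached 2-fold. In CPM 3 rose, and without labelled null library 2 11 rose. The falls were 2 without any 1 of the WT libraries. Of 25 tested chaperone and degradation genes of the endoplasmic reticulum 12 rose and 2 fell (56.0% called, beside 58.9% of all tested genes). Against this, 5 rose and 9 fell in CPM, and 7 rose without WT library 1 or labelled null library 1. Their median of 0.25 was -0.069 in CPM and -0.11 after quantile normalization. *Dnajb9* was 986, 808 and 732 in WT enteroids and 2889, 1798 and 2231 in those labelled null (log2 fold change 1.44, adjusted p = 0.000611, limma), and *Ern2*, the goblet cell form of the stress sensor, 376, 399.9 and 376 in WT enteroids and 12.8, 22.8 and 13.2 in those labelled null (log2 fold change -4.52, adjusted p = 3.44e-05, limma). Among ATF4 targets, the serine synthesis genes *Phgdh* (-1.31), *Shmt2* (-1.16) and *Psat1* (-0.93) fell and *Ddit3* (1.12) rose, and the median of the 16 tested (0.075) was -0.24 in CPM and -0.069 after quantile normalization.

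Of the corepressor's family and partners, 6 of 25 tested genes rose and 13 fell. *Runx1t1* (MTG8) was 21.9, 18.7 and 27.7 in WT enteroids and 0 in every library labelled null, at least 7.08-fold lower against the floor of 3 reads (adjusted p = 0.000441, limma), and *Cbfa2t3* (MTG16) 157, 224 and 143 in WT enteroids and 82.8, 101 and 82.7 in those labelled null (log2 fold change -0.95, adjusted p = 0.00634, limma). The E proteins *Tcf3* (-0.85) and *Tcf12* (-0.42) fell, and *Tcf4* was 317, 283 and 293 in WT enteroids and 275, 283 and 257 in those labelled null (log2 fold change -0.13, adjusted p = 0.358, limma). The median of the E proteins and their inhibitors (-0.13) was 0.048 after quantile normalization. Among 9 deacetylases and corepressors, *Hdac2* (-0.91), *Hdac1* (-0.33) and *Sin3a* (-0.61) fell and *Ncor1* (0.60) and *Sin3b* (0.64) rose, none of them 2-fold, and in CPM 7 of the 9 fell. *Hdac3* did not pass (log2 fold change -0.091, adjusted p = 0.302, limma).

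Among genes that mark regions of the gut, 14 of 26 rose and 7 fell. Of 11 tested proximal genes 9 rose and 1 fell, with *Pdx1* at 328, 328 and 229 in WT enteroids and 570.3, 425 and 508 in those labelled null (log2 fold change 0.77, adjusted p = 0.00781, limma) and *Gata4* (0.41). Of 11 distal and colonic genes 5 rose and 3 fell, but 3 rose without WT library 1, labelled null library 2 or labelled null library 3, and 1 fell without WT library 2. The median of these 11 genes (0.13) was -0.19 in CPM. *Car4* was 74.1, 41.7 and 35.2 in WT enteroids and 520.1, 166 and 739 in those labelled null (log2 fold change 3.04, adjusted p = 0.00221, limma), and *Ly6g* 0, 2.08 and 10.9 in WT enteroids and 14, 34.1 and 28.7 in those labelled null (log2 fold change 2.91, adjusted p = 0.0228, limma). *Hoxa9* (-1.75) and *Hoxa10* (-1.55) fell from WT means of 37.5 and 20.5. The gastric genes *Tff1*, *Gkn3* and *Pgc* fell, with *Gkn3* at 123, 168 and 69.6 in WT enteroids and 2.33, 9.48 and 3.31 in those labelled null (log2 fold change -4.42, adjusted p = 0.000446, limma). Of the germline genes 3 were tested, and *Dppa3* was 3.66, 0 and 2.51 in WT enteroids and 28, 3.79 and 36.4 in those labelled null (log2 fold change 2.77, adjusted p = 0.0356, limma), while *Tdrd1* was 91.5, 86.4 and 69.6 in WT enteroids and 10.5, 1.9 and 5.51 in those labelled null (log2 fold change -3.79, adjusted p = 0.000719, limma).

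**Figure D5:**
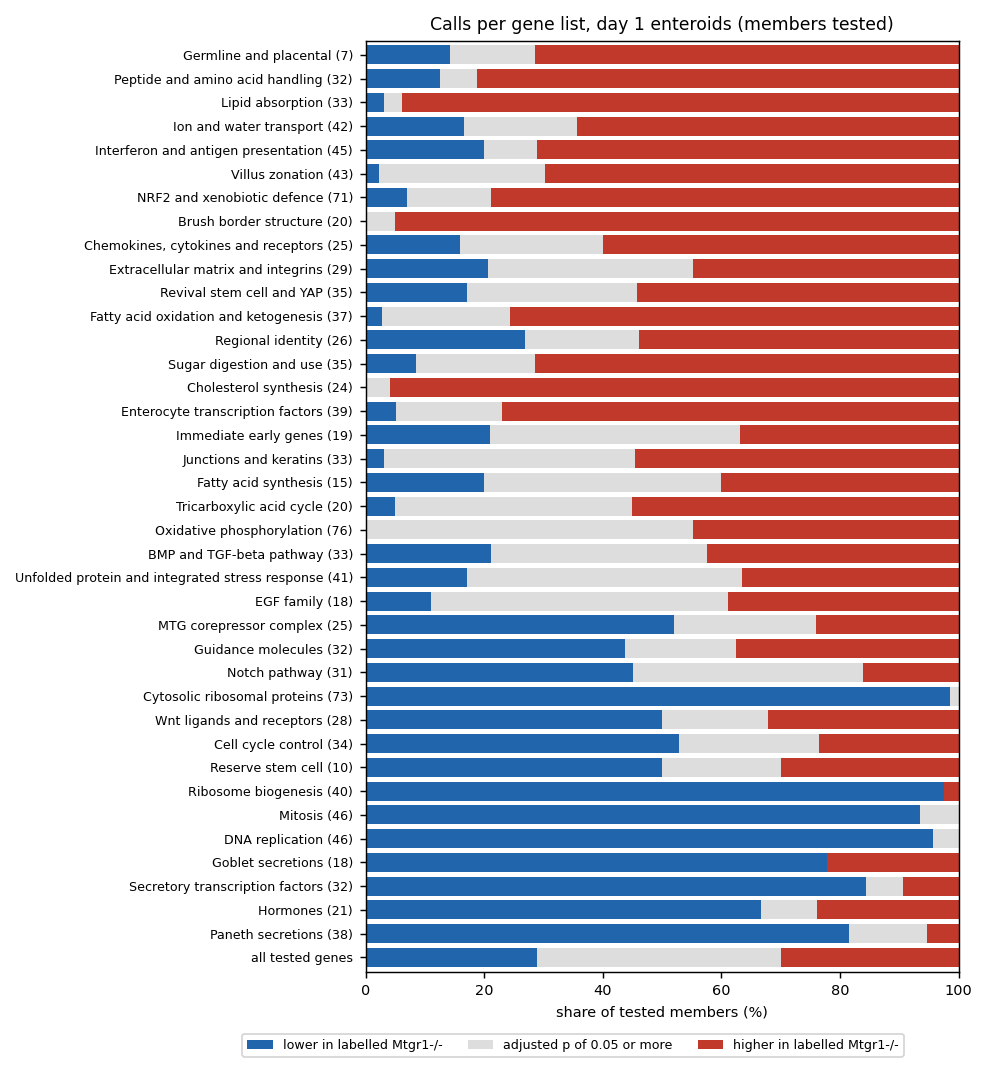
For 38 gene lists, in the order of their median log2 fold change, and for all tested genes at the bottom, the bars give the share of tested members that were lower (blue), not called (grey) or higher (red) in the libraries labelled Mtgr1-/- (limma, adjusted p below 0.05). All tested genes stand at 28.9% lower and 30.0% higher, brush border, cholesterol synthesis and oxidative phosphorylation genes have no falls, and DNA replication, mitosis and cytosolic ribosomal protein genes have no rises.

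Calls were also counted by position. Within 2 Mb of *Cbfa2t2* on chromosome 2, 30 of 59 tested genes were called (50.8%), and beyond 20 Mb on the same chromosome 420 of 746 (56.3%). By gene type, 59.8% of 12190 protein-coding genes were called but 34.6% of 107 long intergenic RNAs and 19.5% of 77 antisense genes.

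Promoter letters were counted for genes that rose and genes that fell at least 2-fold. An HNF4-type sequence, GGACTTTG, searched on both strands of the 250 bases before the start, stood in 35 of 1023 promoters of risen genes (3.42%), in 8 of 1028 of fallen genes (0.778%), in 1.08% of those not called, in 1.33% of all tested and in 1.22% of all promoters in the reference. HNF4 factors are the main activators of enterocyte genes. An AP-1 sequence, TGACTCA, stood in 7.62, 2.24, 2.74, 3.15 and 4.43% in the same order, and the interferon element in 5.96, 2.92, 2.25, 2.67 and 3.04%. The E-box CANNTG, the core that E proteins bind, stood in 64.0, 58.2, 57.8, 57.2 and 66.0%. TATAAA stood in 12.6, 8.85 and 6.24% of the risen, fallen and not called genes, and the mean GC content of these promoters was 56.84, 59.34 and 59.56%. These shares are descriptions, and the part of GC content in them was not tested. The promoters of the peptidase *Ace* (chr11:105967698-105967947, plus strand) and of *Slc3a1* (chr17:85028097-85028346, plus strand), which carries cystine and basic amino acids, are given with GGACTTTG or its reverse, CAAAGTCC, in capitals. Their genes had log2 fold changes of 3.30 and 1.85. Among tested genes of the lists, these letters stood in 2 of 26 promoters for peptide and amino acid handling (7.69%). In fat absorption they stood in 0 of 25.
Ace: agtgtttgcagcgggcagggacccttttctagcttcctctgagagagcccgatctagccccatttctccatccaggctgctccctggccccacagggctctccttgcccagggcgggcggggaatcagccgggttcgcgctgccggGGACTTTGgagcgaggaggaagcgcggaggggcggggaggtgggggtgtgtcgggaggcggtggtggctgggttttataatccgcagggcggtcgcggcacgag
Slc3a1: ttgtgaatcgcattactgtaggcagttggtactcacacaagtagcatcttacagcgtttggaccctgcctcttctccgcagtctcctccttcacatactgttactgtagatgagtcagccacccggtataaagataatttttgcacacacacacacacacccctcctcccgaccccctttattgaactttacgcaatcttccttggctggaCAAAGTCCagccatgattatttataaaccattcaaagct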

How the data were processed

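Total RNA of day 1 enteroids was sequenced from 3 WT and 3 *Mtgr1*-/- mice with a stranded mRNA kit and 50 bp reads. Per the submitters' processing notes, the tools were fastp 0.20.0, Salmon 1.3.0 and DESeq2 1.26.0, and the deposited table holds 1 row per gene. The authors deposited normalized counts, here treated as a signal: within each library 100% of the values were whole multiples (tolerance 0.01 reads) of what 1 read is worth, 0.838 to 1.17 normalized counts, which gave the recovered reads. The table also holds the authors' own mean, fold change, standard error, test statistic and p-values of this comparison, which were not used.

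Genes at or above a mean of 10 entered the fit as log2(normalized count + 1) with limma 3.58.1 (eBayes with trend, R 4.3.3), without covariates, and p-values were adjusted over 12587 genes by the Benjamini-Hochberg method with a threshold of 0.05. Fold changes are on that scale and understate those of low genes. A single-gene exact permutation test of 3 against 3 cannot go below 0.1, and counting limits (a floor of 3 reads) cover counting error only. The fit was tested on simulated data. Same-numbered libraries deviated together (correlations of deviations from the genotype means of 0.116, 0.231 and 0.216, against -0.190 to -0.0152 for other pairs). Such deviations sum to 0 within a genotype, so the values of the other pairs are not independent of the same-numbered ones. The numbers were taken to pair the libraries by this check of the data, in the replicate block only. No label states a shared litter or day.

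The comparison, gene lists and motifs were chosen with earlier results of these data known. Named genes were the 12 largest rises and falls without overlap at a mean of at least 50, the 10 largest gains and losses of counts, the 8 highest genes almost silent in 1 genotype, the 4 largest called rises and falls of each list role (all members of roles of up to 10 genes), *Cbfa2t2*, sex-linked genes and cell type markers, and some genes that the rule names are not reported here. Outside this rule, 28 genes were chosen after their values were seen: *B2m*, *Bmi1*, *Cck*, *Cdk1*, *Ephb2*, *Etv1*, *Fev*, *Gata4*, *Hmgcs1*, *Hnf4a*, *Hopx*, *Irf7*, *Isg15*, *Isl1*, *Lmx1a*, *Pax6*, *Pcna*, *Plk1*, *Reg1*, *Reg3a*, *Reg3b*, *Reg3g*, *Rnf43*, *Rpl34*, *Sct*, *Slc3a1*, *Tac1* and *Tap1*. Positions are from GENCODE M21 (GRCm38), which held all 17423 gene IDs, and promoters from RefSeq (GRCm38.p6), matched for 13493 genes. Alternatives were other pseudocounts, filters and scalings, leaving out each library, array weights, a replicate block, and edgeR 4.0.16 and DESeq2 1.42.0 on the recovered reads. CPM of the recovered reads were added after the data were seen.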

Additional observations from a re-analysis of the deposited data

How the results depend on the processing

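Over 19 alternatives, the count of called genes stayed within 1.5 times of 7413. It was 6160 to 7856 when 1 library was left out, 8802 with array weights and 8027 with the replicate block, by which pairing 7320 of the calls were shared and 2 of the called named genes lost their call. At least 2-fold calls (2647) ranged from 2308 to 3168 without 1 library and were 2685 with the block. Of 477 called genes named by rule or by choice, 83 lost the call in at least 1 alternative. None was called in the opposite direction, although a log2 fold change could change sign, as that of *Xbp1* did in CPM and after quantile normalization. Calls were lost without at least 1 library for *Fth1*, *Dmbt1*, *Gm2274*, *Hes1*, *Klf4*, *Xbp1*, *Pou2f3*, *Wnt6*, *Fzd8*, *Nkd1*, *Nr4a1*, *Tmprss15*, *Mycn*, *Ccl20*, *Ly6g*, *Hoxa9*, *Hoxa10*, *Dppa3*, *Tap1* and *Dclk1*, among genes named in the text. The depth of 22035316 to 28621990 reads limits genes near the minimum mean of 10, of which 35.4% were called at means of 10 to 30 against 73.6% at means over 3000.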
